A study of Sus scrofa with 36 samples.

Results

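Transcripts of 5 regulators of the actin cytoskeleton, ACTN2, SH3PXD2A, FSCN1, TAGLN2 and TIAM2, were followed in the hippocampus of 36 piglets fed different amounts of lactoferrin. The members are the probe sets of a porcine Affymetrix expression array whose annotation gives exactly 1 of these 5 symbols. There were 8 such probe sets among 23999, and all 8 passed the filter on dim probe sets that left 18006 for testing. SH3PXD2A, TAGLN2 and TIAM2 had 1 probe set each, ACTN2 had 2 and FSCN1 had 3. The 5 genes were chosen by their log2 differences between feeding groups in these same arrays, so the dose differences below are a description and carry no test. Their intervals show the error of a difference and do not allow for that choice.

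Every animal was a male Landrace × Large White piglet that entered the study at 3 days and was sampled at 38 days of age. Control piglets received a milk replacer at its basal lactoferrin content, an amount the labels do not give. Medium-dose piglets received 0.6 g/L and high-dose piglets 1.2 g/L of this iron-binding milk glycoprotein. Each group held 12 piglets with 1 array each, and each sample also carries a set code, S1 to S5, whose meaning is not explained in the labels. Set code S1 holds 2 high-dose and 2 control samples but none of the medium dose, so it adds nothing directly to a comparison with the medium dose. The labels name neither litters nor sows, so the spread given here is that between the samples of a group.

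Actin filaments shape dendritic spines and growth cones in the hippocampus, give astrocytes and microglia their motility, and drive the wrapping of axons by oligodendrocytes. Filaments are tied together by crosslinkers and bundlers such as alpha-actinins and fascins, and dressed by calponin-family proteins such as the transgelins. Scaffolds of the TKS family place actin and membrane proteases at podosomes. Guanine nucleotide exchange factors of the TIAM family switch on the small GTPase Rac, which promotes branched actin networks at the cell edge.

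The values are log2 signals made by RMA, a method that corrects background, puts all arrays on the same distribution and condenses each probe set to a single value. They were deposited with 1 decimal, so a step of 0.1 is the finest difference seen in a single array. A log2 difference of 1 is a doubling of signal, and levels of different probe sets are not comparable with each other because probes differ in brightness. General brain markers were bright, with the synaptic gene SNAP25 at a mean of 12.92, the dendritic gene MAP2 at 12.66 and the myelin gene MBP at 14.55 over the 36 arrays. These genes do not tell the hippocampus from other brain regions. Of the genes listed for hippocampal neurons, RGS14 averaged 9.52, PDYN 8.87 and NEUROD1 6.63, and the hippocampal label was not tested. In whole tissue, fewer cells of a type and less RNA per cell cannot be told apart. Medians of the arrays lay within 6.6 and 6.7, and 0 pairs of arrays were identical. High-dose replicate 2 stood apart. Its mean correlation with the other arrays was 0.961 against a median of 0.984 over all arrays, its oligodendrocyte marker mean of 11.63 was the highest of all, and its neuron marker mean of 11.05 was the lowest. Differences that rest on this array are therefore given with and without it.

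Across the whole array, limma with the set code as a block called 0 of 18006 probe sets (0%) at an adjusted p of 0.05 in each of the 3 comparisons. At unadjusted p under 0.05 it called 6.93% of probe sets between medium dose and control, 4.94% between high dose and control and 5.98% between high and medium dose. In each comparison 0% of probe sets separated the groups without overlap, and the members overlapped as well. The median log2 difference over all tested probe sets was 0.00 in each comparison. Both doses are set against the same 12 controls, so their differences share the controls' error.

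The 5 genes fell into 3 dose patterns. On their brightest probe sets, ACTN2 and SH3PXD2A were highest at the medium dose, with the high dose between medium dose and control. FSCN1 was highest and TIAM2 lowest at the high dose. TAGLN2 was lowest at the medium dose and highest at the high dose.

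ACTN2 encodes alpha-actinin-2, a spectrin-family protein that crosslinks actin filaments in muscle Z-discs and, in neurons, sits in dendritic spines where it binds NMDA receptor subunits. On its brighter probe set control arrays ran from 6.8 over a median of 7.6 to 7.9. Medium-dose arrays ran from 7.7 over a median of 8.0 to 8.3, and high-dose arrays from 6.8 over a median of 7.8 to 8.0. All 12 medium-dose arrays and 11 of 12 high-dose arrays were above the control median, and 7 medium-dose arrays exceeded the highest control. The lowest values were those of control replicate 10 and high-dose replicate 2, both at 6.8, and the groups overlapped. Means were 7.52 ± 0.34 in controls, 7.96 ± 0.20 at the medium dose and 7.75 ± 0.31 at the high dose (SD, n = 12 each).

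With set codes as a block, ACTN2 differed by 0.43 (SE 0.12, 95% interval 0.19 to 0.68) between medium dose and control, a ratio of 1.35. The difference between high dose and control was 0.24 (SE 0.12, 95% interval 0.00 to 0.48). Leaving out high-dose replicate 2 gave 0.35, and leaving out control replicate 10 gave 0.17. Between high and medium dose it was -0.19 (SE 0.12), with an interval from -0.43 to 0.05 that spans 0, so the order of the 2 doses is within the spread. Without high-dose replicate 2 this value was -0.14. The dimmer ACTN2 probe set gave another order, with 7.24 ± 0.15 in controls, 7.33 ± 0.15 at the medium dose and 7.40 ± 0.18 at the high dose (SD, n = 12 each). Its differences were 0.08 (SE 0.07) between medium dose and control and 0.17 (SE 0.07) between high dose and control. After group and set code means were removed, the 2 ACTN2 probe sets were only loosely related over the 36 arrays (Pearson r = 0.31, as a description).

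SH3PXD2A encodes TKS5, the scaffold that organises podosomes and invadopodia and that is phosphorylated by Src kinases. Control arrays ran from 8.8 over a median of 9.0 to 9.2, medium-dose arrays from 8.9 over 9.3 to 9.6, and high-dose arrays from 8.5 over 9.1 to 9.3. At the medium dose 11 of 12 arrays were above the control median and 7 were above every control, while high-dose replicate 2 at 8.5 was the lowest array of all. The groups overlapped. Means were 9.0 ± 0.13 in controls, 9.29 ± 0.19 at the medium dose and 9.08 ± 0.21 at the high dose (SD, n = 12 each). The difference between medium dose and control was 0.28 (SE 0.07, 95% interval 0.14 to 0.42), a ratio of 1.21. High dose and control differed by 0.08 (SE 0.07, 95% interval -0.05 to 0.22), by 0.14 without high-dose replicate 2 and by 0.03 without set code S2. Against the medium dose the high dose was at -0.19 (SE 0.07, 95% interval -0.33 to -0.06).

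FSCN1 encodes fascin, which bundles parallel filaments in filopodia and growth cones. Its brightest probe set ran from 10 over a median of 10.4 to 10.7 in controls, from 10.3 over 10.45 to 10.6 at the medium dose and from 10.3 over 10.6 to 10.9 at the high dose. At the high dose 10 of 12 arrays were above the control median and 3 were above the highest control, but the groups overlapped. Means were 10.39 ± 0.17 in controls, 10.46 ± 0.11 at the medium dose and 10.60 ± 0.18 at the high dose (SD, n = 12 each), the only main probe set whose means followed the order of dose upward. The difference between high dose and control was 0.23 (SE 0.06, 95% interval 0.10 to 0.35), a ratio of 1.17. It was 0.20 without high-dose replicate 2, whose 10.9 was the highest value. The step between medium dose and control was 0.09 (SE 0.06, interval -0.04 to 0.22), and it was 0.06 without control replicate 3 and 0.02 without set code S2. That between high and medium dose was 0.13 (SE 0.06, interval 0.01 to 0.26), or 0.22 without S2.

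A second FSCN1 probe set, read at a much lower level, averaged 5.56 ± 0.26 in controls, 5.58 ± 0.15 at the medium dose and 5.73 ± 0.19 at the high dose (SD, n = 12 each). The high dose differed from control by 0.21 (SE 0.07), and 11 of 12 high-dose arrays were above the control median. The third was at 0.06 (SE 0.08) between high dose and control, with an interval from -0.10 to 0.23 that spans 0. Both lie near the level below which probe sets were left out, log2 4.92. Over the 36 arrays, the brightest probe set was related to the second by r = 0.47 and to the third by r = 0.40 after group and set code means were removed.

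TAGLN2 encodes transgelin-2, a small calponin-family protein that binds and stabilises filaments outside smooth muscle. Control arrays ran from 7.3 over a median of 7.6 to 8.1, medium-dose arrays from 7.2 over 7.45 to 7.9 and high-dose arrays from 7.5 over 7.65 to 8.1. At the medium dose 8 of 12 arrays were below the control median, and at the high dose 6 were above it and 2 below. The overlap was wide. Means were 7.63 ± 0.20 in controls, 7.49 ± 0.19 at the medium dose and 7.72 ± 0.19 at the high dose (SD, n = 12 each). Neither dose stood clear of control, with -0.15 (SE 0.08, 95% interval -0.31 to 0.00) for the medium and 0.10 (SE 0.08, 95% interval -0.05 to 0.26) for the high dose. The high-dose value was 0.06 without high-dose replicate 12, 0.07 without control replicate 3 and 0.04 without set code S5. The doses differed more from each other, by 0.26 (SE 0.08, 95% interval 0.10 to 0.41) for high minus medium dose.

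TIAM2 encodes a Rac exchange factor, also called STEF, known from mouse neurons for a part in neurite outgrowth. At both doses its SD was above those of the brightest probe sets of the other 4 genes, while in controls it was close to that of ACTN2. Control arrays ran from 6.4 over a median of 7.4 to 7.6, medium-dose arrays from 6.8 over 7.4 to 8.1 and high-dose arrays from 5.9 over 6.95 to 7.5. High-dose replicates 2 and 7 were both at 5.9, control replicate 4 at 6.4 was apart from the other controls, and 10 of 12 high-dose arrays were below the control median. Means were 7.33 ± 0.33 in controls, 7.46 ± 0.36 at the medium dose and 6.88 ± 0.52 at the high dose (SD, n = 12 each).

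The TIAM2 difference between high dose and control was -0.47 (SE 0.17, 95% interval -0.82 to -0.12), a ratio of 0.722. Leaving out high-dose replicate 2 gave -0.35, leaving out high-dose replicate 7 gave -0.36, and leaving out control replicate 4 gave -0.59. High and medium dose differed by -0.59 (SE 0.17, 95% interval -0.94 to -0.24), a ratio of 0.664. This difference was -0.53 without high-dose replicate 2 and -0.48 without high-dose replicate 7. Medium dose and control were 0.12 apart (SE 0.17, interval -0.23 to 0.47). That last value was -0.0029 without control replicate 4 and 0.18 without high-dose replicate 2, so its sign rests on 1 array. Leaving out medium-dose replicate 2 or 7 gave 0.07 each.

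**Figure D1:**
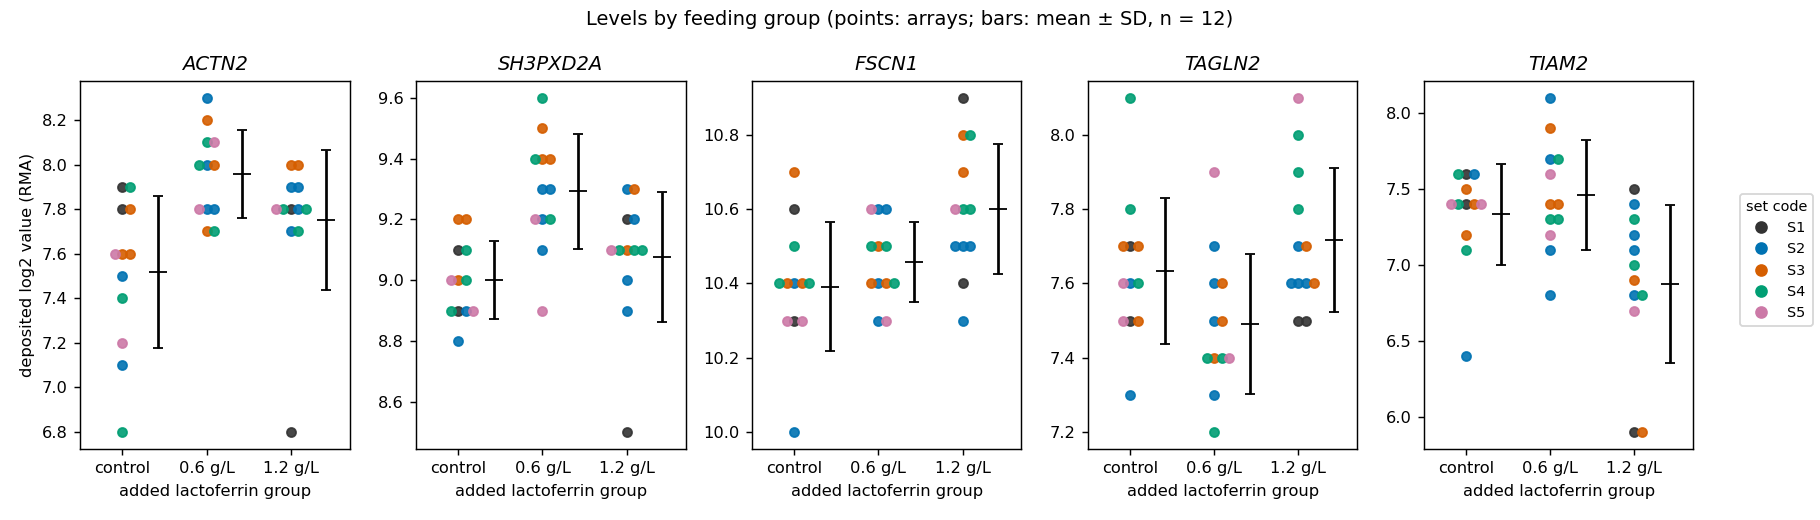
Deposited log2 values of the brightest probe set of each gene (vertical axis, a separate scale per gene) in control, 0.6 g/L and 1.2 g/L piglets, with 1 point per array coloured by set code and black bars for the mean ± SD of 12 arrays. ACTN2 and SH3PXD2A sit highest at 0.6 g/L (means 7.96 and 9.29), FSCN1 is highest at 1.2 g/L (10.60), and TIAM2 is lowest there (6.88), with every gene's groups overlapping.

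**Figure D2:**
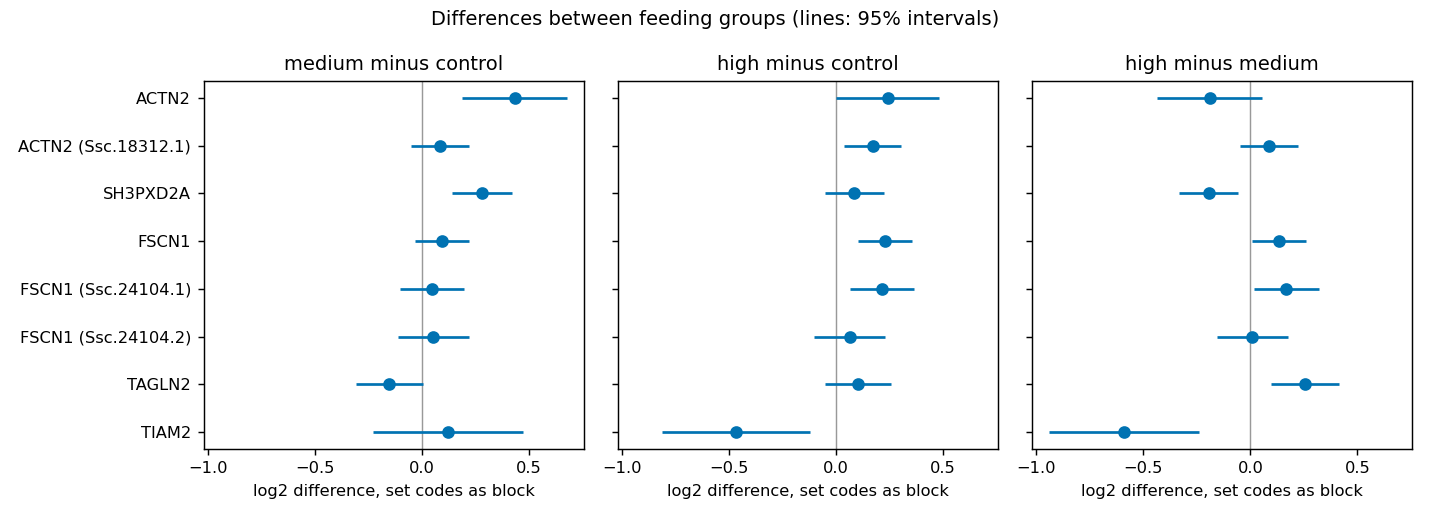
Log2 differences for the 8 probe sets in the 3 comparisons, with the set code as a block; points are estimates and lines 95% intervals. The members were chosen by these differences, which run from -0.59 for TIAM2 in high minus medium to 0.43 for the brighter ACTN2 probe set in medium minus control.

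The set codes offered a look at the same differences in smaller blocks of 1 to 4 arrays per group. These blocks are parts of the differences that chose the genes, so like signs across set codes are a description and no independent support. The share of all probe sets with like signs in every set code was not counted. FSCN1 between high dose and control was the most even. S1 gave 0.20, S2 and S3 gave 0.25 each, S4 gave 0.23 and S5 gave 0.30, and each of the 5 differences was above 0. The S1 value rests on high-dose replicate 2 at 10.9. High-dose replicate 1 at 10.4 lay between the S1 controls at 10.3 and 10.6. The S5 value rests on 1 high-dose array. Between medium dose and control FSCN1 was uneven, from -0.07 in S3 to 0.28 in S2.

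SH3PXD2A lay higher at the medium dose than in controls in 4 of 4 set codes, with S2 at 0.37, S3 at 0.30, S4 at 0.40 and S5 at 0.10. ACTN2 did so in 4 of 4 too, with S2 at 0.68, S3 at 0.30, S4 at 0.57 and S5 at 0.55. Between high dose and control ACTN2 was higher in 4 of 5 set codes, by 0.33 to 0.53, and lower by -0.55 in S1, where high-dose replicate 2 is 1 of the 2 high-dose arrays. Without S1 the ACTN2 difference between high dose and control was 0.41.

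TIAM2 was lower at the high than at the medium dose in 4 of 4 set codes, with S2 at -0.30, S3 at -1.17, S4 at -0.40 and S5 at -0.70. High-dose replicate 7 at 5.9 is 1 of the 2 high-dose arrays in S3. Against control TIAM2 was lower in 4 of 5, with S2 at 0.12 as the exception. The S1 value of -0.8 rests on high-dose replicate 2 at 5.9. High-dose replicate 1 at 7.5 lay between the S1 controls at 7.4 and 7.6. TAGLN2 was higher at the high than at the medium dose in 4 of 4, with S2 at 0.10, S3 at 0.15, S4 at 0.57 and S5 at 0.45. Its difference between medium dose and control lay mostly in S4, at -0.50, and was -0.03 when S4 was left out. With S4 left out, TAGLN2 differed by 0.14 between high and medium dose.

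**Figure D3:**
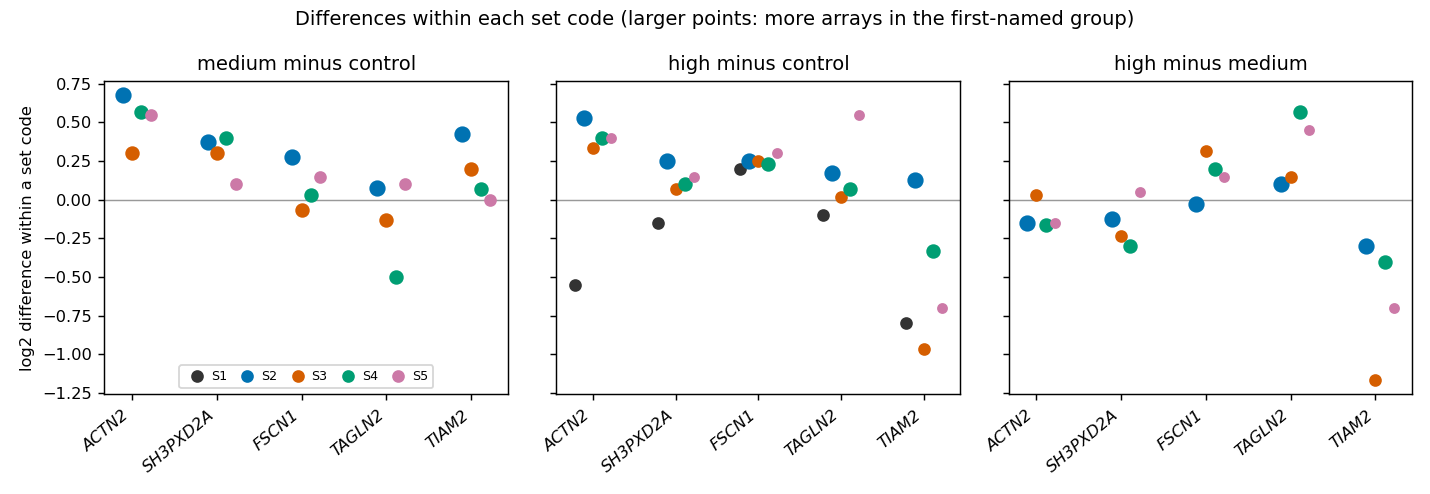
Log2 difference within each set code (vertical axis) for the brightest probe set of each gene, in panels for medium minus control, high minus control and high minus medium, with larger points for more arrays in the first-named group. The 5 FSCN1 points in high minus control lie within 0.20 and 0.30, whereas those of ACTN2 run from -0.55 to 0.53 and those of TIAM2 from -0.97 to 0.12. High-dose replicate 2 is 1 of the 2 high-dose arrays behind each S1 point.

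Variation between set codes was not used to choose the genes and could be tested. A limma F test of the set code, with feeding group in the model, called 2.62% of all probe sets at an adjusted p of 0.05 and 17.4% at an unadjusted p under 0.05. Of the 8 member probe sets 0 passed after adjustment. The second FSCN1 probe set (unadjusted p = 0.0138, adjusted p = 0.159) and SH3PXD2A (unadjusted p = 0.0398, adjusted p = 0.259) came nearest, and the adjusted p of TIAM2 was 0.992. For SH3PXD2A the S3 arrays averaged 9.26 ± 0.17 (SD, n = 8) and the S5 arrays 9.02 ± 0.13 (SD, n = 5). An F test of whether the feeding differences varied between set codes called 0.0167% of all probe sets after adjustment and 6.92% before it. Of the members 0 of 8 passed, and the smallest p was that of TAGLN2 (unadjusted p = 0.0171, adjusted p = 0.671).

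Relations between the 5 genes were taken over the 36 arrays after the means of feeding group and set code had been removed, so the dose shifts that chose the genes do not enter. Of 10 pairs, 4 passed an adjusted permutation p of 0.05 for Pearson r, 3 above 0 and 1 below. Pairs of other genes were not counted in the same way, so this share is not shown to be particular to the 5 genes. The permutation shuffles the residuals as if they were independent, although the removed means tie them together. The permutation p-values of residuals, here and for the marker lists and array quality below, are therefore somewhat too small. Relations with an adjusted p near 0.05 are uncertain. FSCN1 and TIAM2 ran against each other (r = -0.62, permutation p = 0.0001, adjusted p = 0.001, Spearman rho = -0.61, adjusted p = 0.0011). The relation was r = -0.68 without the 2 arrays farthest from the FSCN1 median and r = -0.54 (adjusted p = 0.0065) without high-dose replicate 2. Within S2, S3 and S4 the values of r were -0.61, -0.28 and -0.59, and r was -0.54 in arrays that carried the polyadenylated spike-in control and -0.76 in those that did not.

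The other 3 pairs rested on fewer arrays or on 1 kind of coefficient. SH3PXD2A was related to ACTN2 (r = 0.55, permutation p = 0.00079, adjusted p = 0.00357) and to TIAM2 (r = 0.53, permutation p = 0.00107, adjusted p = 0.00357). The rank coefficients of both pairs, 0.38 and 0.39, missed the threshold with an adjusted permutation p of 0.0654 each. Without high-dose replicate 2 these pairs were at r = 0.22 (adjusted permutation p = 0.266) and r = 0.32 (adjusted permutation p = 0.154), so neither passed. Without the 2 arrays farthest from the median they were at 0.28 for ACTN2 with SH3PXD2A and 0.39 for SH3PXD2A with TIAM2. FSCN1 and TAGLN2 gave r = 0.41 (permutation p = 0.012, adjusted p = 0.0299), or 0.43 without 2 arrays, but a rho of 0.27 that did not pass (adjusted permutation p = 0.288). Without high-dose replicate 2 it was at r = 0.49 (adjusted permutation p = 0.0137), and with only the feeding group means removed it was at r = 0.36 and did not pass (adjusted permutation p = 0.0784). Within set codes that pair held opposite signs, 0.82 in S2 and -0.49 in S3.

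Cell type markers were set beside the members in the same way, as means of 13 lists. Of 65 relations 14 passed, 9 above 0 and 5 below, and TIAM2 and FSCN1 held 9 of them. How many of all probe sets follow these lists was not counted, so the relations are not shown to be particular to the 5 genes. TIAM2 ran against the oligodendrocyte list of 9 genes (r = -0.76, rho = -0.72) and the oligodendrocyte precursor list of 3 genes (r = -0.79, rho = -0.65). Both values of r had a permutation p of 1e-05, the smallest that 100000 resamples can give, and an adjusted p of 0.000217. Without 2 arrays they were -0.68 and -0.72, and without high-dose replicate 2 they were -0.68 and -0.73. Each of the 9 oligodendrocyte genes lay below 0 against TIAM2, among them the myelin enzyme CNP at -0.77, the myelin glycoprotein MAG at -0.69 and MBP at -0.68. The tested genes of the precursor list were OLIG2, a transcription factor of the oligodendrocyte lineage, at -0.79, OLIG1 at -0.69 and VCAN at -0.68. Its other genes, among them PDGFRA and CSPG4, were not tested.

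FSCN1 ran with the same lists. It gave r = 0.65 with the oligodendrocyte list (permutation p = 3e-05, adjusted p = 0.00039, rho = 0.61) and r = 0.63 with the precursor list (permutation p = 2e-05, adjusted p = 0.000325, rho = 0.57). Without 2 arrays these were 0.61 and 0.58. Of the 9 oligodendrocyte genes 8 lay above 0, with MBP highest at 0.77, and MOBP, another myelin gene, was at -0.06. Against the neuron list of 10 genes TIAM2 gave r = 0.62 and FSCN1 r = -0.58 (adjusted permutation p = 0.00158 and 0.00119), but the rank coefficients of 0.36 and -0.35 did not pass (adjusted permutation p = 0.154 each). With the list of hippocampal granule and pyramidal neurons, of which 3 genes were tested, TIAM2 passed by both coefficients (r = 0.61, adjusted permutation p = 0.0026, rho = 0.58, adjusted permutation p = 0.00299), and r was 0.68 without 2 arrays and 0.49 without high-dose replicate 2. With the interneuron list of 5 genes TIAM2 gave r = 0.53 and FSCN1 r = -0.51 (adjusted permutation p = 0.00689 and 0.00833). Without high-dose replicate 2 these were 0.34 and -0.39 and did not pass (adjusted permutation p = 0.149 and 0.077). Without that array TIAM2 passed with the meninges and fibroblast list (r = 0.44, adjusted permutation p = 0.0447).

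These relations were not alike in each set code. TIAM2 with the oligodendrocyte list was at -0.86 in S2, -0.64 in S3 and -0.23 in S4, and FSCN1 with it was at 0.71 in S2, 0.61 in S3 and -0.22 in S4. S1 and S5, with 4 and 5 arrays, were too small for a value. With the spike-in control present the values were -0.77 for TIAM2 and 0.62 for FSCN1, and without it -0.75 and 0.69.

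**Figure D4:**
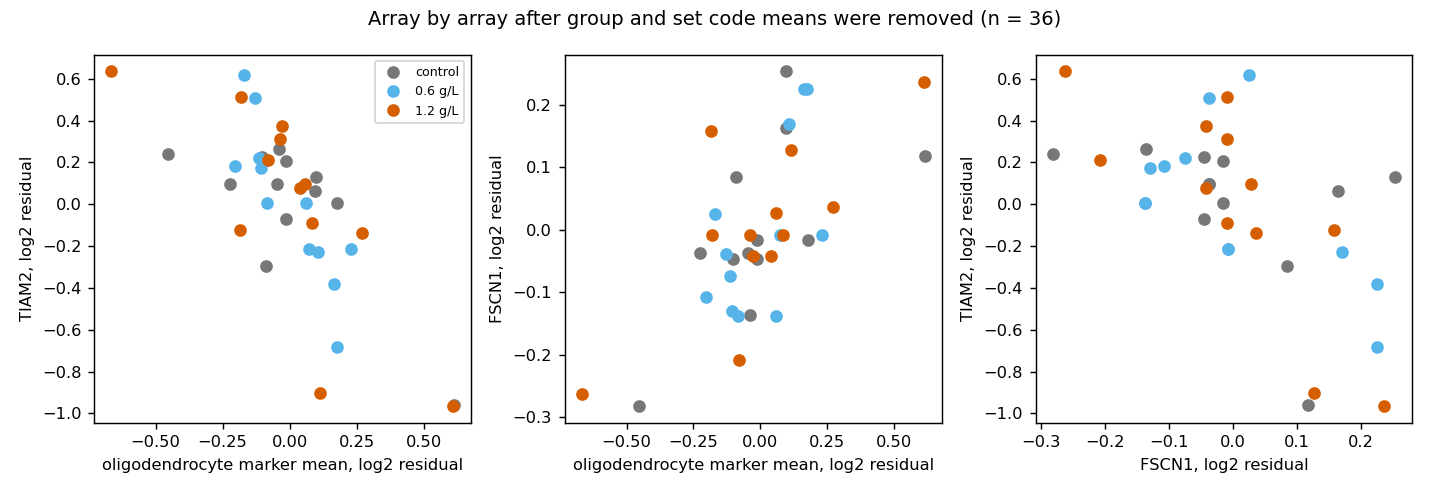
Array-by-array residuals in log2 units after group and set code means were removed, 1 point per array coloured by feeding group. Along the oligodendrocyte marker mean TIAM2 slopes downward (r = -0.76) and FSCN1 upward (r = 0.65), and TIAM2 against FSCN1 also slopes downward (r = -0.62).

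The oligodendrocyte mean itself ran from 10.33 to 11.40 in controls, from 10.38 to 10.81 at the medium dose and from 10.36 to 11.63 at the high dose. It differed by -0.18 between medium dose and control, -0.02 between high dose and control and 0.17 between high and medium dose. With this mean as a covariate, TIAM2 was at -0.49 (SE 0.11) between high dose and control and at -0.38 (SE 0.12) between high and medium dose, against -0.47 and -0.59 without it. Between medium dose and control TIAM2 was then at -0.12 (SE 0.12) in place of 0.12. FSCN1 stayed at 0.23 (SE 0.05) between high dose and control, was at 0.16 (SE 0.05) between medium dose and control and at 0.07 (SE 0.05) between high and medium dose, against 0.23, 0.09 and 0.13 without the covariate. The covariate itself differed little between high dose and control, and the part of oligodendrocyte content in these differences was not tested. This covariate was added after the data had been seen.

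ACTN2 was most closely tied to the list of skeletal and heart muscle genes (r = 0.78, permutation p = 1e-05, adjusted p = 0.000217, rho = 0.66, and r = 0.67 without 2 arrays). Only 3 of the 10 listed genes could be tested. They were slow myosin MYH7 at r = 0.51, desmin, DES, at 0.50 and troponin TNNI3 at 0.12, and DES is also in the list of smooth muscle genes. This list mean ran from 7.70 to 8.47 in controls, from 8.07 to 8.50 at the medium dose and from 8.07 to 8.53 at the high dose. It differed by 0.01 between medium dose and control and 0.10 between high dose and control, and its part in the ACTN2 difference was not tested. ACTN2 was also related to the list of hippocampal granule and pyramidal neurons (r = 0.57, permutation p = 0.00106, adjusted p = 0.00689), but with a rho of 0.28 that did not pass (adjusted permutation p = 0.276). Without high-dose replicate 2 it was at r = 0.40 and did not pass (adjusted permutation p = 0.077). The 3 tested genes of this list were not alike, with RGS14 at r = 0.61, PDYN at 0.57 and NEUROD1 at -0.03. That list was 0.32 higher at the medium dose than in controls and -0.01 apart between high dose and control, and its part was not tested either.

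SH3PXD2A had its highest value with the neuron list (r = 0.50, permutation p = 0.00333, adjusted p = 0.018). It was r = 0.14 without 2 arrays and 0.13 without high-dose replicate 2, so this relation rested on those arrays. Its relations with the granule and pyramidal neuron list (r = 0.44) and the oligodendrocyte precursor list (r = -0.43) passed as well, with an adjusted permutation p of 0.0448 and 0.0462, and did not pass without that array (r = 0.22 and -0.22). TAGLN2 passed with 0 of 13 lists by Pearson r over the 36 arrays. Without high-dose replicate 2 it passed with the neuron list (r = -0.57, adjusted permutation p = 0.0039), the interneuron list (r = -0.50, adjusted permutation p = 0.0188) and the oligodendrocyte precursor list (r = 0.44, adjusted permutation p = 0.0447). Over all arrays its largest values were 0.35 with the microglia and the oligodendrocyte precursor lists (adjusted permutation p = 0.114 each), and its rank coefficient with the neuron list was -0.48 (adjusted permutation p = 0.0294).

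**Figure D5:**
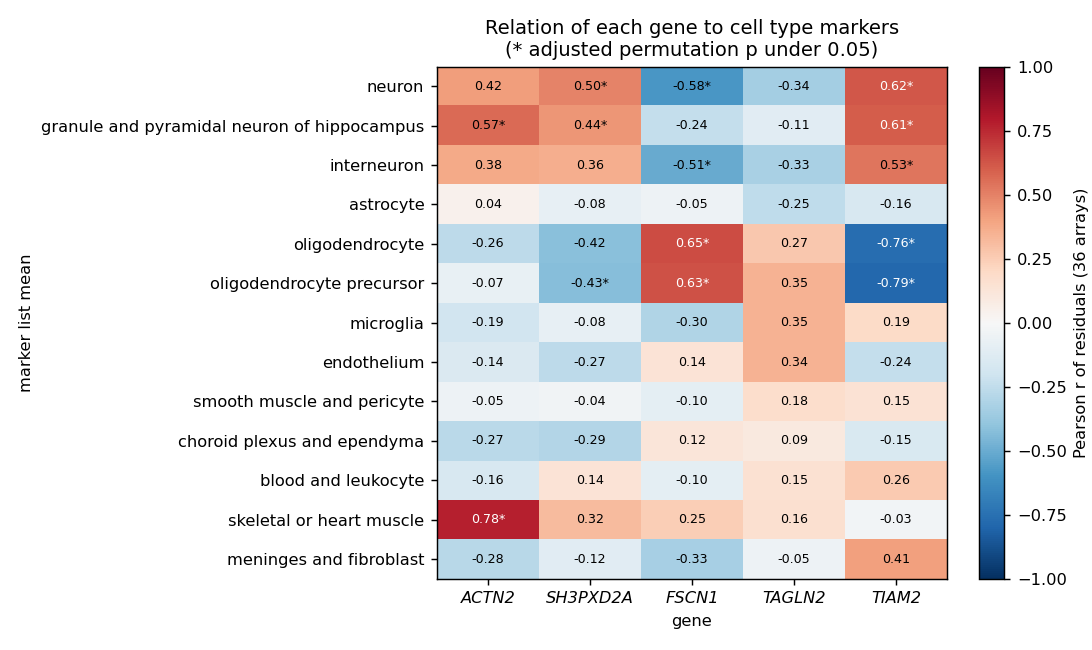
Pearson r over 36 arrays between each gene and the mean of each marker list, after group and set code means were removed, in colour and as printed values, with an asterisk for an adjusted permutation p under 0.05 over 65 relations. TIAM2 and FSCN1 have opposite signs along the neuron and oligodendrocyte lists, and ACTN2 stands out with the muscle list at 0.78.

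Signs of array quality were set beside the members as well. Of 15 relations with the actin 3′ to 5′ difference, the hybridisation control bioB and the mean correlation of an array, 5 passed, and 0 of 15 passed without high-dose replicate 2. Without it the mean correlation was still at r = 0.39 with TIAM2, 0.33 with ACTN2, 0.28 with SH3PXD2A and -0.22 with FSCN1. The relation of ACTN2 with bioB was then at r = -0.08. With the actin 3′ to 5′ difference as a covariate, added after the data had been seen, ACTN2 was at 0.49 (SE 0.12) between medium dose and control, and TIAM2 at -0.48 (SE 0.17) and FSCN1 at 0.23 (SE 0.06) between high dose and control.

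The genes whose array-to-array pattern was most like each member were listed by the highest r of residuals over 36 arrays, as a description. For ACTN2 they were FHL2, a LIM-domain protein (0.84), TMEM54 (0.84) and the glycogen primer glycogenin GYG1 (0.79). For SH3PXD2A they were the neuritin gene NRN1 (0.81), the septin SEPT5 (0.78) and the neurotrophin BDNF (0.75). FSCN1 was most like the kinase SIK3 (0.84), PAF1, a subunit of an RNA polymerase-associated complex (0.83), and the transporter SLC45A3 (0.82). TAGLN2 was most like the prostaglandin E synthase PTGES (0.71), the cell cycle inhibitor CDKN1A (0.70) and the tumour necrosis factor receptor TNFRSF1B (0.68). TIAM2 was most like arginase ARG2 (0.84), the GABA receptor subunit GABRA4 (0.82) and C1H14orf37 (0.80).

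Close relatives of the members were measured for 3 of 9 genes, none of which passed in any comparison (adjusted p from 0.857 to 0.998 in limma). ACTN1, the alpha-actinin of non-muscle cells, was at 0.08 (SE 0.08) between medium dose and control and at 0.01 (SE 0.07) between high dose and control on its brightest probe set. TAGLN3, a neuronal transgelin, was at 0.16 (SE 0.12) and at 0.02 (SE 0.12) in the same comparisons. TAGLN, the smooth muscle transgelin, was at -0.01 (SE 0.17) and at -0.14 (SE 0.17).

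Of 183 further genes of actin regulation in 9 lists, 98 were on the array and 93 were tested, and limma called 0 of 93 in each comparison after adjustment. At unadjusted p under 0.05 they held 5 genes between medium dose and control (5.38%, against 6.93% of all probe sets), 3 between high dose and control (3.23%, against 4.94%) and 6 between high and medium dose (6.45%, against 5.98%). These shares are near those of the array as a whole. Their median differences were 0.01, 0.00 and -0.03 in that order of comparison, against 0.00 for all probe sets.

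The genes behind those counts were named after their values were seen, and none passed after adjustment. Between medium dose and control they were drebrin DBN1, an actin-binding protein of spines (0.23, SE 0.07), and profilin PFN2 (0.22, SE 0.10) on the upper side, where the array had 3.78% of probe sets. On the lower side, with 3.15% of probe sets, were the membrane linker moesin MSN (-0.13, SE 0.05), MARCKS (-0.14, SE 0.05) and the calponin CNN3 (-0.21, SE 0.09). Between high dose and control MARCKS (-0.13, SE 0.05) and beta-actin ACTB (-0.17, SE 0.06) were among the genes that lay lower, as did 2.17% of all probe sets, while 2.77% lay higher. Between high and medium dose the 6 genes also lay lower, among them smooth muscle actin ACTA2 (-0.50, SE 0.24) and the Arp2/3 subunit ARPC5 (-0.27, SE 0.09). On the whole array 3.49% of probe sets lay lower in that comparison and 2.48% higher.

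Above 0 lay 50.3% of all tested probe sets between medium dose and control, 49.7% between high dose and control and 50.3% between high and medium dose. Of the 93 actin genes, 50 (53.8%), 43 (46.2%) and 34 (36.6%) lay above 0 in the same order of comparison. The 5 actins had 2, 0 and 0 genes above 0 in that order, with medians of -0.01, -0.09 and -0.14. The 13 nucleation and Arp2/3 genes had 9, 6 and 3, with medians of 0.05, 0.00 and -0.07. Among 19 genes of filament turnover and capping the counts were 14, 11 and 6, with medians of 0.02, 0.00 and -0.02. The 11 genes of the calponin family and tropomyosins, the class of TAGLN2, had 5, 3 and 2, with medians of -0.01, -0.08 and -0.07. For 8 genes of Rac and Cdc42 activation, the pathway of TIAM2, the counts were 5, 4 and 2, with medians of 0.02, 0.02 and -0.03. The 11 podosome genes, the setting of SH3PXD2A, had 4, 4 and 5, with medians of -0.02, -0.01 and -0.01. For 9 crosslinkers and bundlers, the class of ACTN2 and FSCN1, the counts were 4, 3 and 5, with medians of -0.03, -0.01 and 0.01. Of the 18 genes of the spine and NMDA receptor list only 2 were tested, too few for a description.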

How the data were processed

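Total RNA of 36 hippocampi was read on 1 array each, and the authors deposited 1 log2 value per probe set. The submitters' processing notes name Expression Console 1.1 and RMA. The genome build behind the array design is not given in the sources used here. The values were used as deposited, and array intensities were not analysed here. Array controls (124) and dim probe sets, whose mean lay under the 25th percentile (log2 4.92), were left out, which left 18006 of 23999. An annotation of 2016 gave exactly 1 symbol to 10069 probe sets, several to 198 and none to 13732, and 9961 of the names were matched to RefSeq by gene ID.

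Groups came from the labels' feeding group. Differences, their SE and 95% intervals came from limma 3.58.1 in R 4.3.3 (lmFit and eBayes) with feeding group and set code in 1 model over 36 arrays. P-values (2-sided) took the Benjamini-Hochberg adjustment over all 18006 probe sets, with a threshold of 0.05. Relations used Pearson r and Spearman rho of residuals in Python 3.11.15 with scipy 1.17.1, with 100000 permutations (2-sided), adjusted within each family of 10, 65 or 15 relations. Arrays counted as carrying the spike-in control Dap above log2 6. A gene of a list was read from its probe set of highest mean. The scripts were tested on simulated data, the permutation test on independent values and not on residuals. The number of arrays limits the precision.

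The rule for named genes takes every member probe set, the relatives of the members, list genes past the threshold, the marker list of highest absolute r and the 3 genes most like each member. The members and lists were chosen with earlier results of these data known. Replicate numbers shared between groups did not pair the samples, since the correlation of deviations passed 0.1 in 2, 4 and 2 of 12 pairs in medium minus control, high minus control and high minus medium. The other settings tried were no set block, replicate blocks, a random set block, quantile normalisation, array weights, pairs of groups alone, other filters, leaving out each sample or set code and, for relations, other residuals. Blocks and covariates for spike-in control, marker means and actin 3′ to 5′ difference were added after the data had been seen. Results for 1 gene and 1 list of actin regulators are not reported here.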

Additional observations from a re-analysis of the deposited data

Results flagged for a closer look

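In 40 groups of 4 to 10 arrays, formed by set code for the 8 probe sets, 5 had an end value far from the rest by Dixon's criterion, which chance alone meets in about 5% of such groups. The feeding groups of 12 are too large for it. In set code S1, high-dose replicate 2 was at 6.8 for ACTN2, with the nearest array at 7.8, and at 5.9 for TIAM2, with the nearest at 7.4. This is the array that stood apart from all others. Also in S1, control replicate 1 was at 7.7 for TAGLN2, with the other arrays at 7.5. For FSCN1, control replicate 3 was at 10 in S2, with the nearest at 10.3, and high-dose replicate 9 was at 10.8 in S4, with the nearest at 10.6.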

How the results depend on the processing

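Of 1248 recalculated dose differences of the 8 probe sets, all 1248 moved by less than the spread between replicates. That spread is wide beside many of the differences, so this count is a weak check. It takes in TIAM2 between medium dose and control, which went from 0.12 to -0.12 with the oligodendrocyte mean as a covariate. Over 16 settings the second FSCN1 probe set ran from -0.03 to 0.13 in that comparison. Leaving out each sample kept the sign in 36 of 36 fits for the brightest probe sets, except TIAM2 between medium dose and control (35 of 36, range -0.0029 to 0.18). The range was 0.36 to 0.49 for ACTN2 and 0.25 to 0.31 for SH3PXD2A between medium dose and control, 0.19 to 0.26 for FSCN1 and -0.59 to -0.35 for TIAM2 between high dose and control, and 0.22 to 0.29 for TAGLN2 between high and medium dose. The count of probe sets past the threshold was 0 but for 3 settings. It was 11 with only the medium-dose and control arrays. SH3PXD2A was at 0.31 (SE 0.06) there, a description without a test because such differences chose the gene. The count was 1 between high and medium dose with array weights, and 1 there with the neuron mean as a covariate, added after the data had been seen. With the replicate number as a block the counts were 0 in all 3 comparisons, and TIAM2 between high dose and control was at -0.46, or at -0.62 with set codes too. Of the 10 pairs of genes 2 passed without high-dose replicate 2, in place of 4. Of the 15 relations with array quality 3 passed for values as deposited and 0 without high-dose replicate 2, in place of 5. No result changed sign past a threshold. The arrays carry values of 1 decimal and 12 samples a group, which limits what small differences can show.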
